A study of Rattus norvegicus with 6 samples.

Results

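The sodium pump (Na,K-ATPase) subunits and FXYD regulators were examined in kidney RNA of 6 male rats, through the probe sets that the array annotation assigns to exactly 1 of 8 genes: Atp1b1, Atp1b3, Fxyd1, Fxyd2, Fxyd4, Fxyd5, Fxyd6 and Fxyd7. The rule gave 9 probe sets of the 31042 tested, 2 of them for Atp1b1, called first and second here in the order of their identifiers, and 1 for each other gene. There were 3 congenic S.LEW(10)x12x2x3x5 rats, which have the Dahl salt-sensitive genetic background and by their strain name carry chromosome 10 material of the Lewis (LEW) rat. They were set against 3 Dahl S rats, the inbred salt-sensitive parent strain, whose genome both groups share outside the introgressed piece. All 6 were weaned at 30 days, received a diet with 0.3% salt from then on and were killed at 53 days, and each kidney RNA was hybridised to 1 Affymetrix Rat Expression 230 2.0 array. The 8 genes lie on rat chromosomes 1, 4, 8 and 13, and 0 of them on chromosome 10.

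The sodium pump sits in the basolateral membrane of kidney tubule cells, where it expels sodium in exchange for potassium at the cost of ATP and so drives sodium reabsorption along the nephron. An alpha subunit does the transport, and a beta subunit is needed for it to fold and reach the membrane. FXYD proteins are small membrane proteins with one transmembrane span, named after a short conserved amino acid motif, that bind the alpha-beta pair and change its affinity or maximal rate in a tissue-specific way.

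Expression values were log2 probe set intensities, in which a difference of 1 is a doubling of the signal. The array medians lay between 7.48 and 7.51, and the correlation between arrays across probe sets was 0.985 to 0.998. RNA quality was read from beta-actin and Gapdh controls as the log2 level at the 3′ end of the transcript minus that at its 5′ end, averaged over both genes, which is larger in degraded or incompletely labelled RNA. It was 1.26, 1.01 and 1.08 in congenic rats 1 to 3, and 1.56, 2.10 and 1.70 in S rats 1 to 3. The groups did not overlap (mean difference -0.67; two-sided exact permutation p = 0.1, the smallest value that 3 against 3 allow). S rat 2, with the largest difference, also stood apart in the distal convoluted tubule cotransporter Slc12a3, at 12.21 to 12.31 in congenic rats, against 9.50 in S rat 2 and 12.42 and 11.73 in S rats 1 and 3. Over 5 distal convoluted tubule markers S rat 2 averaged 8.54, against up to 10.04 in S rats and 9.91 to 9.99 in congenic rats. Over 4 podocyte markers it averaged 7.75, against up to 9.68 in S rats and 9.32 to 9.48 in congenic rats. In each of these 4 genes S rat 3 lay between S rats 1 and 2 and below all congenic rats. Nphs1, for example, read 8.87, 5.67 and 6.90 in S rats 1 to 3, against 8.27 to 8.47 in congenic rats. The falling order of S rats 1, 3 and 2 was that of their rising 3′ minus 5′ difference. Thick ascending limb markers averaged 11.89 in S rat 2 and 11.89 to 11.90 over all S rats. Whether the tissue sampled differed in S rats 2 and 3 was not tested. Kidney markers were bright in both groups. Umod, the thick ascending limb protein uromodulin, averaged 14.62 in congenic and 14.72 in S rats, and Lrp2, the proximal tubule receptor megalin, 13.52 in congenic and 13.61 in S rats. Neither was called (limma, adjusted p = 0.343 for Umod and 0.390 for Lrp2). Intercalated cell markers gave 1 call lower of 5 measured, the exchanger Slc4a1 (-0.28, limma, adjusted p = 0.0463), and a list median of 0.084. Endothelial markers gave 1 call lower of 5 measured, Vwf (-0.54, limma, adjusted p = 0.0235), and a list median of -0.022. Because whole kidney was measured, fewer cells of a type cannot be told apart from less RNA per cell.

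Fxyd6, which encodes the FXYD protein phosphohippolin, known as a pump regulator from work on rat brain and inner ear, was lower in the congenic kidney, and none of the other 7 genes passed the test. The Fxyd6 probe set read 11.03, 10.85 and 10.77 in congenic rats 1 to 3, against 11.77, 11.83 and 11.77 in S rats 1 to 3. The S rats lay almost on one level and the congenic rats spread more, with a gap of 0.74 between the highest congenic and the lowest S value. The mean was 10.88 ± 0.13 in congenic rats and 11.79 ± 0.04 in S rats (SD, n = 3 each). The log2 change of -0.91 ± 0.08 (SE) is a 1.88-fold lower signal, and the ratio of congenic to S was 0.533 with a 95% interval of 0.470 to 0.604. It passed limma's moderated test at an adjusted p of 0.00596 (Benjamini-Hochberg over all probe sets). Among the 784 called falls of the whole table it was number 13 by size.

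Of the 9 member probe sets, 0 were called higher, 1 lower and 8 not called at an adjusted p of 0.05. Over all probe sets 6.00% were called in either direction and 2.53% were called lower, so 1 call among 9 is a count that these shares do not set apart. Congenic and S values were fully separated in 6 of the 9, and in 31.2% of all probe sets. The median absolute log2 change was 0.18 over the 9 and 0.10 over the table. The median signed change was 0.012 over the 9 and -0.02 over the table. The members and the interest in them were chosen with results of these arrays known, so these shares are descriptions. The call of Fxyd6 depended on single rats although its size did not. It stood at -0.92 without S rat 3 (adjusted p = 0.0582, limma), at -0.89 without congenic rat 2 (adjusted p = 0.0668) and at -0.85 without congenic rat 3 (adjusted p = 0.0530). Over the whole table those settings called 0, 0 and 8 probe sets, with 6968, 5575 and 5359 below an unadjusted p of 0.05.

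**Figure D1:**
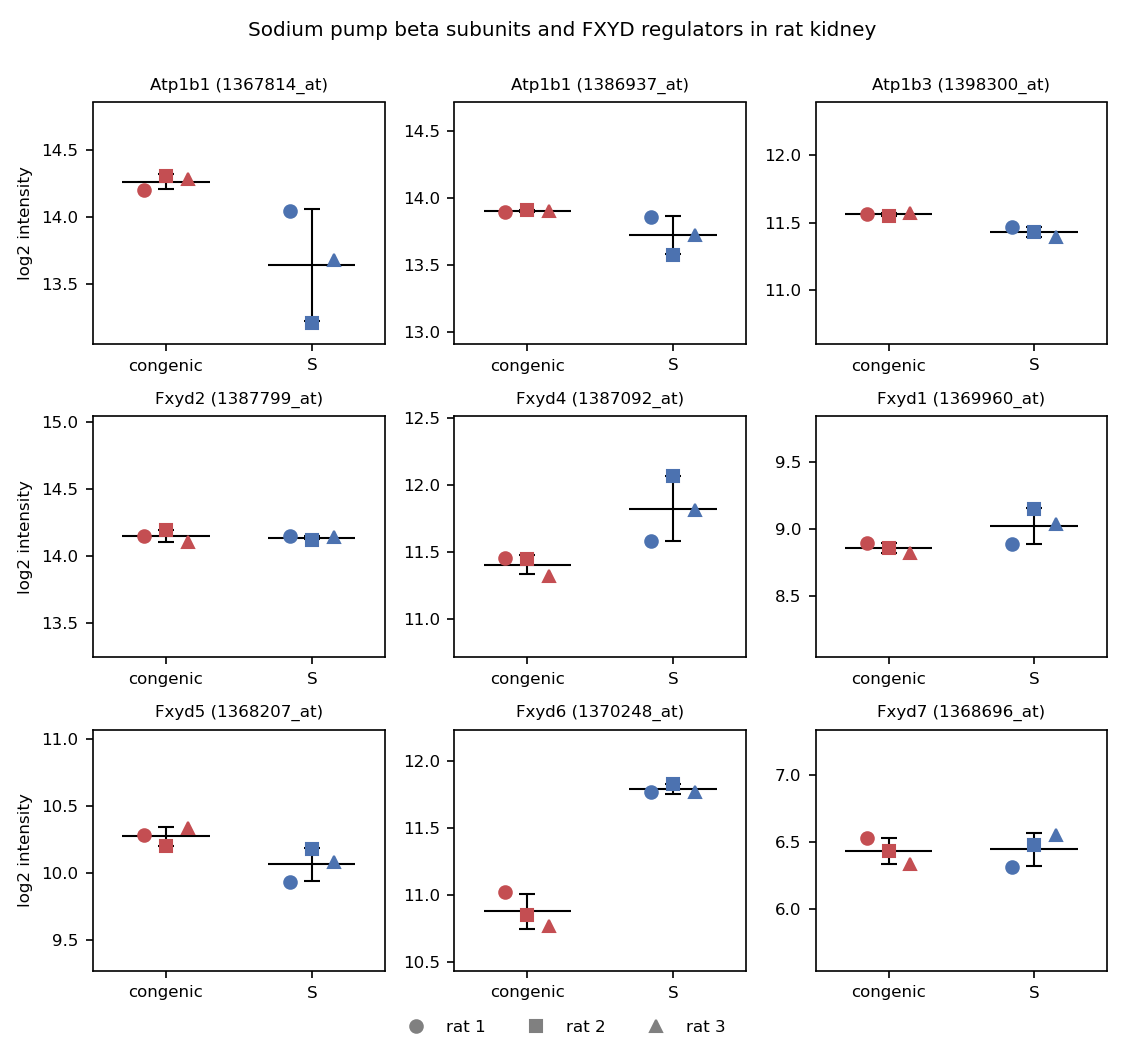
Log2 intensity (vertical axes, each spanning the same range) of the 9 member probe sets in congenic rats (red, left) and S rats (blue, right), with a marker shape per rat number and black bars for mean and SD. Fxyd6 separates the groups by 0.74, while the Fxyd2 values of all 6 rats lie between 14.10 and 14.19.

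The stretch before and around the annotated start of Fxyd6 is shown because this gene carries the called change, and that of Fxyd4 because it had the next largest negative value. RefSeq windows of 300 bases (250 before and 50 after the start, GRCr8) matched 5 of the 8 members. The Fxyd6 window is chr8:54575575-54575874 on the plus strand, and the Fxyd4 window is chr4:152785996-152786295 on the minus strand, each read 5′ to 3′ on the strand of its gene. Capitals mark matches, on either strand, to the GC box GGGCGG, the CCAAT box CCAAT, the TATA box TATAAA, the E-box CANNTG and the steroid hormone half-site TGTTCT.
Fxyd6: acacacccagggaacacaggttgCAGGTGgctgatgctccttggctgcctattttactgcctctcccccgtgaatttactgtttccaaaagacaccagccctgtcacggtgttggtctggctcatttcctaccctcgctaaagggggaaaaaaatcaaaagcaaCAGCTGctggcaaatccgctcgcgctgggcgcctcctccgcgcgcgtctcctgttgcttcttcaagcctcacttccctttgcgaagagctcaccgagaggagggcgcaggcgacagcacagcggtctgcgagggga
Fxyd4: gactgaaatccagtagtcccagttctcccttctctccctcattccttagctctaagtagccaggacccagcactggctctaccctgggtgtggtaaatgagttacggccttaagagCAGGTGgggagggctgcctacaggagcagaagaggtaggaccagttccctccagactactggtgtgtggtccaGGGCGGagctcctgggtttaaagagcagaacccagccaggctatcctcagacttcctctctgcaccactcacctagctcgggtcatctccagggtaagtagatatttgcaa
The Fxyd6 window held 2 E-boxes, a pattern present in 72.1% of all 33469 windows of this length, and no match to the other 4 motifs. The Fxyd4 window held 1 E-box and 1 GC box. A GC box, with or without other motifs, was found in 33.1% of all windows. No match to TATAAA (14.2% of windows), to CCAAT (37.5%) or to TGTTCT (20.7%) was found in either. The GC content was 57.7% for Fxyd6 and 54.7% for Fxyd4, against a median of 51.7% over all windows. For comparison, the window of Atp1b3 was 77.7% GC and held 6 GC boxes and 2 CCAAT boxes. These matches describe letters in the reference genome, and sequence differences between the strains were not analysed here.

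Fxyd6 and Fxyd2 are adjacent genes on chromosome 8 of the RefSeq table. Fxyd2 encodes the gamma subunit, the FXYD protein of the proximal tubule and thick ascending limb, whose mutation in humans causes renal magnesium wasting. Its probe set read 14.15, 14.19 and 14.10 in congenic rats 1 to 3, against 14.15, 14.12 and 14.14 in S rats 1 to 3. The values overlapped, with a log2 change of 0.01 and a 95% interval of -0.13 to 0.15 (limma, adjusted p = 0.936). Of 6 thick ascending limb markers 1 was called lower, the tight junction gene Cldn16 (-0.35, limma, adjusted p = 0.0340). Umod stood at -0.10 and the cotransporter Slc12a1 at -0.11. Kcnj1, of the same list and named after its value was seen, stood at 0.58 (limma, adjusted p = 0.0671), and the list median was -0.10. Over all 7 probe sets of the list 1 was called higher and 1 lower. Taken within each array, Fxyd6 minus Fxyd2 was -3.12, -3.34 and -3.33 in congenic rats, against -2.38, -2.29 and -2.37 in S rats. This difference of neighbours shifted by -0.92 between the groups without overlap (two-sided exact permutation p = 0.1, the smallest that 3 against 3 allow). The comparison was chosen after the values were seen. With Fxyd2 between 14.10 and 14.19 in all rats, the shift restates the Fxyd6 change and adds no separate support. The brightest probe set of S rat 1 read 15.14, so Fxyd2 lies near the top of the scale, and saturation was not tested.

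Of the 5 measured genes on each side of Fxyd6, 0 of 10 were called. Tagln, which encodes the smooth muscle protein transgelin and lies 7 genes away, had the highest value (0.34 ± 0.08 SE, limma, adjusted p = 0.0540), and Mpzl2, an adhesion molecule, the lowest (-0.20 ± 0.08 SE, adjusted p = 0.157). Between Fxyd6 and these lie Il10ra, the receptor for interleukin-10, at 0.10, and Bace1, a membrane protease, at 0.28 (adjusted p = 0.0615).

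**Figure D2:**
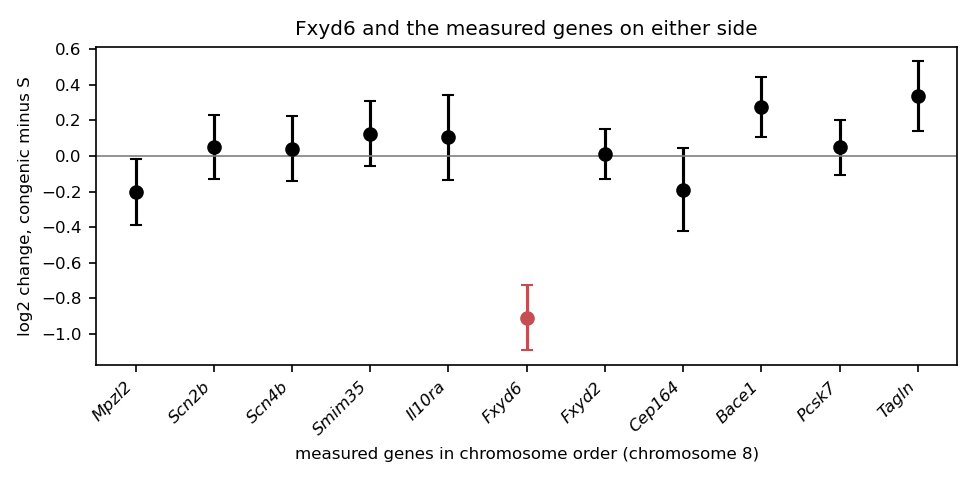
Log2 change, congenic minus S, with its 95% interval (vertical axis) for Fxyd6 and the 5 measured genes on each side in chromosome order (horizontal axis, brightest probe set of each gene). Fxyd6 (red) stands at -0.91 and its 10 neighbours between -0.20 and 0.34.

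By the smallest root mean square difference between profiles centred on their own mean, over 6 arrays, the 3 nearest named probe sets to Fxyd6 belonged to Id4, Adgrf1 and Gsta3. Id4, an inhibitor of helix-loop-helix transcription factors, differed from the Fxyd6 profile by 0.11 and read 8.33, 7.98 and 7.88 in congenic rats, against 8.70, 9.03 and 8.84 in S rats. The adhesion receptor gene Adgrf1 differed by 0.12 and read 8.71, 8.68 and 8.62 in congenic rats, against 9.31, 9.65 and 9.38 in S rats. Gsta3, a glutathione transferase, differed by 0.13. Each of the 3 separated the groups in the same direction as Fxyd6, which follows from their selection by likeness and adds no support. S rat 2 was the highest of the 6 arrays in each. Their log2 changes were -0.79, -0.78 and -0.71, and -0.29, -0.39 and -0.33 with the RNA quality measure as a term beside group.

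Markers of adipocytes, neurons and glia were read beside Fxyd6, from the brightest probe set of each gene, of which 4.79% over all genes were called. Of 6 adipocyte markers 0 were called higher and 1 lower, the lipid droplet gene Cidec (-0.61, limma, adjusted p = 0.0202). Ucp1, the uncoupling protein of brown fat, which is named after its value was seen, stood at -1.14 (adjusted p = 0.0507), and Fabp4, a fatty acid carrier, at -0.35 (adjusted p = 0.385). The mean level of the list was 8.04 to 8.47 in congenic rats and 8.53 to 9.11 in S rats, although the groups overlapped in 4 of the 6 genes. Of the 5 measured neuron and glia markers 1 was called lower, S100b (-0.69, adjusted p = 0.0220). The groups overlapped in the other 4, among them the neurofilament gene Nefl (-0.13, adjusted p = 0.671), and the list median was -0.041. The part of these markers in the Fxyd6 value was not tested. No detection call was given, so it cannot be said which markers were absent.

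The beta subunits gave higher congenic values that did not pass. Atp1b1 encodes the main beta subunit of the kidney pump. Its first probe set read 14.20, 14.30 and 14.28 in congenic rats 1 to 3, against 14.04, 13.21 and 13.67 in S rats 1 to 3. The congenic rats were close together and all above the S rats, whose SD was 0.42 against 0.05 in congenic rats. The log2 change was 0.62 ± 0.18 (SE), a 1.54-fold higher signal with a 95% interval of 1.16 to 2.03 (limma, adjusted p = 0.0721). Without S rat 2, the lowest, it was 0.40 (adjusted p = 0.0853), and without S rat 1 it was 0.82 and passed (adjusted p = 0.00440). Leaving out S rat 1 called 4752 probe sets over the whole table, against 1862 with all rats.

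The second Atp1b1 probe set read 13.89, 13.91 and 13.90 in congenic rats, against 13.86, 13.58 and 13.73 in S rats. The order of the rats was the same, with S rat 2 lowest, but the spread was smaller, and the log2 change was 0.18 ± 0.08 (SE, adjusted p = 0.204). The first minus the second probe set, taken within each array, was 0.31, 0.40 and 0.38 in congenic rats, against 0.18, -0.37 and -0.05 in S rats, with no overlap (shift 0.44, two-sided exact permutation p = 0.1, the smallest possible). Both probe sets are for 1 gene and gave unequal sizes. The order of the S rats in that difference was the reverse of their order in the RNA quality measure, with S rat 2 at its lower end.

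Atp1b3 encodes a second, widely expressed beta subunit. It read 11.57, 11.55 and 11.57 in congenic rats, against 11.47, 11.43 and 11.39 in S rats. All congenic values were above all S values by at least 0.08, and the log2 change of 0.13 ± 0.06 (SE) did not pass (limma, adjusted p = 0.209). The RefSeq table also lists an Atp1b3 pseudogene, and cross-hybridization was not tested.

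Fxyd4 encodes CHIF, the FXYD protein of the collecting duct, which raises the pump's affinity for sodium and is induced by corticosteroids in rat. Its probe set read 11.45, 11.44 and 11.32 in congenic rats 1 to 3, against 11.58, 12.07 and 11.81 in S rats 1 to 3. The groups did not overlap, S rat 2 was highest, and S rat 1 lay 0.13 above the highest congenic rat. The log2 change was -0.41 ± 0.12 (SE), a 1.33-fold lower congenic signal with a ratio interval of 0.624 to 0.901, and missed the threshold (limma, adjusted p = 0.0686). Without S rat 2 it was -0.29 (adjusted p = 0.116), and without S rat 1 it was -0.53 and passed (adjusted p = 0.00824), in the setting that called 4752 probe sets over the table. Of 7 principal cell markers, the cells that hold CHIF in the collecting duct, 0 were called higher and 1 lower, the water channel Aqp4 (-0.59, adjusted p = 0.0332). Over all 11 probe sets of these genes 1 was called higher and 1 lower, and the list median was 0.17. Aqp4 was not the brightest of the list. The brightest marker, the water channel Aqp2, stood at -0.12 (adjusted p = 0.339) and the steroid-inactivating enzyme Hsd11b2 at 0.39 (adjusted p = 0.197), and the list mean was 10.50 to 10.61 in congenic and 10.41 to 10.60 in S rats.

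The remaining FXYD genes share a stretch of chromosome 1, where Fxyd5, Fxyd7 and Fxyd1 follow one another directly. Fxyd5 encodes dysadherin, which raises pump activity and weakens cell adhesion. It read 10.29, 10.20 and 10.34 in congenic rats, against 9.93, 10.18 and 10.08 in S rats. The lowest congenic value was 0.02 above the highest S value, and the log2 change of 0.21 ± 0.08 (SE) did not pass (limma, adjusted p = 0.150). Fxyd5, Fxyd7 and Fxyd1 each had 0 of 10 measured neighbouring genes called, with values from -0.31 to 0.27. Of 7 leukocyte markers 2 were called higher, Coro1a (0.38, adjusted p = 0.0235) and the class II invariant chain Cd74 (0.27, adjusted p = 0.0490). Laptm5, a lysosomal protein of blood cells, stood at 0.079 (adjusted p = 0.618), and the list mean was 9.47 to 9.56 in congenic and 9.26 to 9.44 in S rats. Their part in the Fxyd5 value was not tested.

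Fxyd1 encodes phospholemman, the phosphorylation-controlled pump regulator of heart and skeletal muscle. It read 8.90, 8.86 and 8.82 in congenic rats, against 8.88, 9.15 and 9.04 in S rats, and the groups overlapped at congenic rat 1 and S rat 1 (log2 change -0.17 ± 0.08 SE, limma, adjusted p = 0.240). Of the 6 measured smooth muscle and mesangium markers 0 were called, with Tagln at 0.34 and the smooth muscle actin Acta2 at 0.57 (adjusted p = 0.163). Of the 5 skeletal muscle markers 0 were called, with the myosin Myh1 at -0.11 (adjusted p = 0.327) and the troponin Tnnt3 at -0.032 (adjusted p = 0.911). The Myh1 probe set averaged 13.69 in congenic and 13.80 in S rats, against 6.14 and 6.18 for Tnnt3. Cross-hybridization was not tested, so the Myh1 value may not be a reading of skeletal muscle. Fxyd7, a pump regulator of rat brain, was dim, with a mean below the array medians. It read 6.53, 6.43 and 6.34 in congenic rats, against 6.31, 6.48 and 6.55 in S rats, and the ranges of both groups coincided almost fully (log2 change -0.01, 95% interval -0.21 to 0.18, adjusted p = 0.945, limma).

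**Figure D3:**
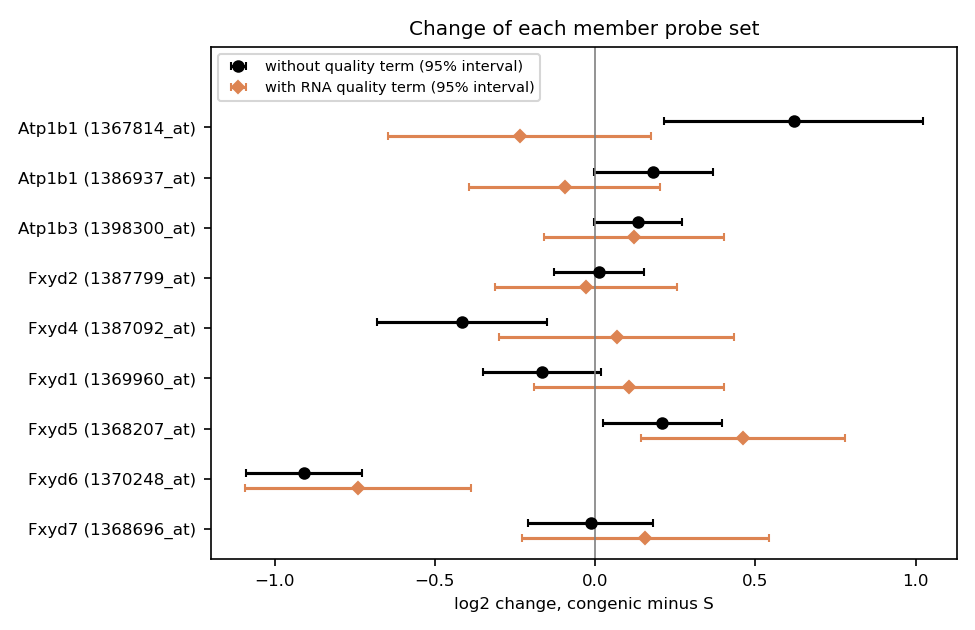
Log2 change, congenic minus S (horizontal axis), of the 9 member probe sets with 95% intervals, from the model of group alone (black circles) and with the RNA quality measure as a further term (orange diamonds). Fxyd6 lies at -0.91 and -0.74, and Atp1b1 (first probe set) at 0.62 and -0.24.

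Several members followed the RNA quality measure across rats. Within the S group, Atp1b1 (first probe set) was 14.04, 13.67 and 13.21 in the order of rising 3′ minus 5′ difference (1.56, 1.70 and 2.10), and Fxyd4 was 11.58, 11.81 and 12.07 in the same order. Fxyd6 was 11.77, 11.77 and 11.83 over these 3 rats. In congenic rats it was 10.85, 10.77 and 11.03 in the order of rising 3′ minus 5′ difference (1.01, 1.08 and 1.26). With the measure as a term beside group, Atp1b1 (first probe set) stood at -0.24 ± 0.18 (SE) and Fxyd4 at 0.07 ± 0.16, both on the other side of 0. Fxyd6 stood at -0.74 ± 0.15, with an interval of -1.09 to -0.39 and an unadjusted p of 0.00139, below the 0.05 that 7.38% of all probe sets reached in that model. Its adjusted p was 0.453, and no probe set of the table passed. Fxyd5 was 0.46 ± 0.14 with the term (unadjusted p = 0.0104, adjusted p = 0.527). The measure itself separates the groups, and the part of RNA quality and that of strain in these values cannot be told apart.

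**Figure D4:**
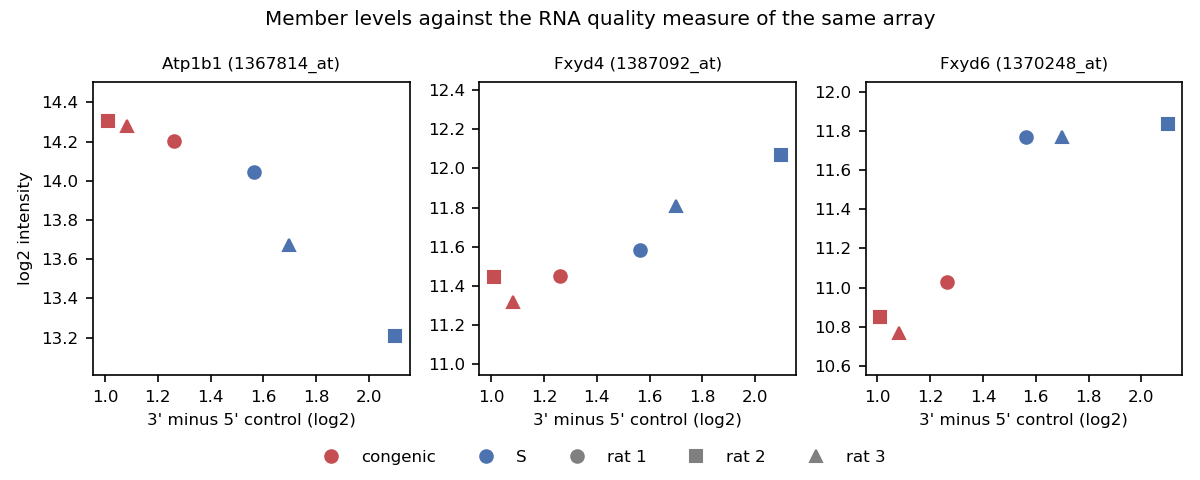
Log2 intensity of Atp1b1, Fxyd4 and Fxyd6 (vertical axes, equal span) against the 3′ minus 5′ control difference of the same array (horizontal axis, log2), with congenic rats in red, S rats in blue and a shape per rat number. Atp1b1 declines and Fxyd4 rises along the S rats. Fxyd6 lies between 11.77 and 11.83 there and between 10.77 and 11.03 in congenic rats, highest in congenic rat 1.

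Other genes around the pump were read from 5 lists, by the brightest probe set of each gene. Of 60 listed genes 52 were measured, and 2 were called higher and 1 lower (5.77%), against 4.79% of all genes. Of the 4 measured genes among the other subunits and Fxyd3, 0 passed at the brightest probe set. Atp1b2, a beta subunit of brain glia whose gene is on chromosome 10, stood at -0.28 ± 0.08 (SE, limma, adjusted p = 0.0822) by the brighter of its probe sets, and at 0.27 (adjusted p = 0.0669) by the dimmer, so its direction is not settled. Atp1a4, the alpha subunit of sperm, stood at -0.41 (adjusted p = 0.0832), and Fxyd3, an epithelial FXYD protein next to this chromosome 1 group, at -0.31 (adjusted p = 0.176). The list median was -0.29, against -0.03 over all genes, and it was -0.0058 with the RNA quality term.

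Among 20 measured pump partners and regulators 1 was called, Ppp1r1b on chromosome 10, which encodes the dopamine-regulated phosphatase inhibitor DARPP-32. It read 10.65, 10.65 and 10.57 in congenic rats, against 10.95, 11.43 and 11.19 in S rats (log2 change -0.56 ± 0.11 SE, limma, adjusted p = 0.0333). Fitted with RNA quality, it was at -0.10. The cytoskeletal pump partner Add3 stood at 0.32 (adjusted p = 0.0664; 0.18 at its other probe set) and the kinase Prkca at -0.18 (adjusted p = 0.192), and the list median was 0.0052. The 12 other ion-pumping ATPases gave 0 calls and a median of -0.02, with Atp2b3, a plasma membrane calcium pump, at -0.36 (adjusted p = 0.0600; -0.037 and -0.068 at its other probe sets), the potassium pump Atp12a at 0.20 (adjusted p = 0.0901) and the calcium store pump Atp2a2 at -0.17 (adjusted p = 0.171).

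Basolateral channels return potassium brought in by the pump and let chloride leave. Of 7 measured, 1 was called higher, the inward rectifier gene Kcnj15, at 11.96, 11.60 and 11.73 in congenic rats, against 11.37, 11.27 and 11.28 in S rats (0.46 ± 0.10 SE, limma, adjusted p = 0.0366). Its second, dimmer probe set was also higher (0.49, adjusted p = 0.0214). Fitted with RNA quality, the brighter stood at 0.54 and the dimmer at 0.22. Kcnk5, a background potassium channel, stood at 0.24 (adjusted p = 0.116) and Bsnd, the chloride channel subunit barttin, at -0.18 (adjusted p = 0.160), and the list median was 0.16. Of 9 apical sodium entry genes Slc5a2, the glucose cotransporter of the early proximal tubule, was called higher (1.67, adjusted p = 0.0333, and 0.60 with the RNA quality term). The phosphate cotransporter Slc34a1 stood at 0.28 (adjusted p = 0.118) and the sodium channel subunit Scnn1g at 0.29 (adjusted p = 0.139), and the median was 0.20. Dimmer probe sets called what the brightest did not for 4 genes of these lists. Scnn1g was higher by 0.52 there (adjusted p = 0.0321) and its partner subunit Scnn1a by 0.56 (adjusted p = 0.0334), against 0.19 (adjusted p = 0.528) at the brightest Scnn1a probe set. The spectrin gene Sptbn1 was higher by 0.61 (adjusted p = 0.0322) and the calcium pump gene Atp2b1 stood at -0.41 (adjusted p = 0.0287), against 0.042 and -0.030 at their brightest probe sets. Without S rat 3 or any 1 of the congenic rats, 0 of the 52 genes passed, and without S rat 1, 12 did. Over all probe sets the setting without S rat 1 called 4752, against 1862 with all rats. Those without S rat 3 and without congenic rats 1, 2 and 3 called 0, 350, 0 and 8.

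**Figure D5:**
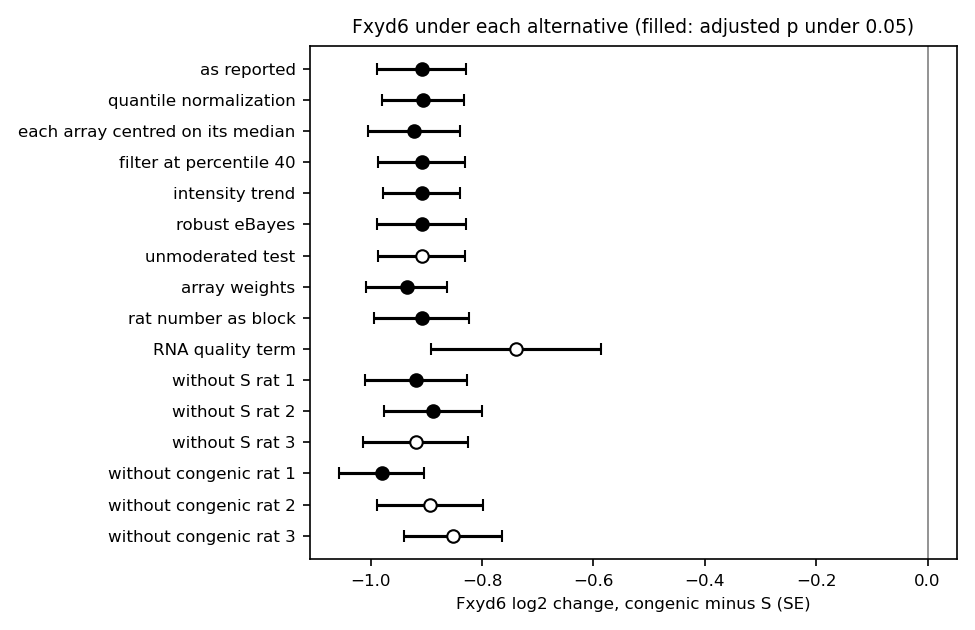
Fxyd6 log2 change, congenic minus S, with its SE (horizontal axis) as reported and under 15 alternatives (down the page), with filled points where the adjusted p was under 0.05. All values lie between -0.98 and -0.74, and 5 of the 15 alternatives leave the point open.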

How the data were processed

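Kidney RNA of 6 rats was measured on 1 array each, from 15 µg of labelled cRNA per array, per the labels' protocols. The authors deposited log2 probe set intensities, judged from the values, which run from 3.76 to 15.14. The method that summarised and normalised them is not given in the sources used here, and the submitters adjusted p-values in R 2.8.1, per the series' design text. Of 31099 probe sets, 57 controls were left out. Symbols come from the platform annotation, updated by Entrez identifier to the RefSeq table of GRCr8, which served for names, chromosomes and gene order.

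Congenic and S rats were compared by lmFit and eBayes of limma 3.58.1, run in R 4.3.3, on log2 values (2-sided, Benjamini-Hochberg over all 31042 probe sets, adjusted p under 0.05, 4 residual degrees of freedom, 8.49 with the prior). There is no read depth behind array values; precision is limited by the number of rats, 3 per group. The method was tested on simulated data. Every member probe set is described. The text names the 3 genes with the smallest p of each related list (the alpha and beta list has Atp1b2, Atp1a4 and Fxyd3), the 3 most similar profiles of a called gene, the called genes of marker lists and the 2 brightest of each list set beside a member. The 2 brightest of the other marker lists also fell under the rule, and not all are printed. Ucp1 and Kcnj1 lie outside it. Neighbouring genes, the comparison of Fxyd6 with Fxyd2, that of both Atp1b1 probe sets and the motifs were chosen after the values were seen. Members and lists were chosen with earlier results of these data known. Rat numbers recur in both groups, and cages held 1 rat of each strain, but no label says that a number marks a cage. Plots used matplotlib 3.10.9 and motif searches Python 3.11.15.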

Additional observations from a re-analysis of the deposited data

How the results depend on the processing

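Fxyd6 kept its direction in all 15 alternatives and its call in 10 of them. It lost the call in an unmoderated test per probe set (-0.91, adjusted p = 0.131, with 0 probe sets called and 6166 below an unadjusted p of 0.05) and when RNA quality was a further term (-0.74, adjusted p = 0.453, with 0 called by limma and 2292 below an unadjusted p of 0.05). Leaving out 1 rat at a time gave -0.98 to -0.85, with adjusted p from 9.74e-04 to 0.0668. The number of member probe sets called was 3 with an intensity trend or at an adjusted p of 0.10, 4 with array weights, 0 in the unmoderated test and with the RNA quality term, and 0 to 3 when 1 rat was left out. The related genes called numbered 12 with array weights, 8 at an adjusted p of 0.10, 7 when every probe set of a gene counted, 0 at an adjusted p of 0.01, in the unmoderated test and with the RNA quality term, and 0 to 12 when 1 rat was left out. The calls over all 31042 probe sets moved as well. They numbered 1862 as reported, 2664 with the trend, 6077 with array weights and 4752 without S rat 1. The member and related counts are therefore not read as results about these genes.

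The calls added by array weights were those of Atp1b1 (first probe set), Fxyd4 and Fxyd5, and those added by the trend were Atp1b1 (first probe set) and Fxyd4. With the RNA quality term the sign turned for Atp1b1 (-0.24 at the first and -0.095 at the second probe set), Fxyd1 (0.11), Fxyd2 (-0.027), Fxyd4 (0.068) and Fxyd7 (0.16). Fxyd2 was also at -0.079 after quantile normalization, -0.0020 after median centring, -0.0085 with array weights and between -0.0103 and 0.035 with 1 rat left out, and Fxyd7 between -0.082 and 0.037. The cause of these turns was not tested. Fxyd7 lay below the filter at percentile 40 and has no value there. With the rat number as a replicate block Fxyd6 stayed at -0.91 (adjusted p = 0.0151), and the block called 658 probe sets against 1862 without it and 1 member in either case. Deviations from the group mean had correlations of -0.01, -0.18 and -0.14 for rats of the same number, and -0.25 to 0.38 for rats of unlike number. Deviations of 3 rats from their own mean are tied to one another, so these values cannot decide whether cages were shared. The numbers were not taken as pairs because no label says that they mark cages. Means of 3 arrays limit what can be seen, and values near the top of the scale, as for Fxyd2 and Atp1b1, can understate a change. So can dim values, and Fxyd7 lay below the array medians, though above their lower quartiles (5.88 to 5.96).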
